A study of Mus musculus with 7 samples.

Results

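Collagen chain genes were followed across 7 whole ankles of arthritic mice. They were taken by name, as genes whose symbol has the form Col, a number, a, a number. Such a symbol was carried by 44 of the 27179 genes listed, and the 33 whose mean over the libraries reached 1 FPKM are the members described here. FPKM counts fragments per kilobase of gene, scaled to the depth of the library, so levels of different chains can be set side by side. The members comprise 11 fibrillar chains, 8 FACITs, 6 basement membrane chains, 6 network-forming chains and 2 transmembrane chains.

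All ankles came from DBA1 mice with collagen-induced arthritis, in which immunity to injected cartilage collagen inflames and erodes the joints. The skin had been removed and the ankles flash frozen. In 3 ankles the joint had received an irrelevant microRNA in a lipoplex, a lipid carrier (control), and in 4 a mimic of miR-17-5p in the same carrier (mimic). No healthy or uninjected ankle was among the samples, the labels give no age, and nothing in them ties each ankle to its own mouse. The p-values below therefore reflect only the spread among the 7 samples, which may be technical. The comparison asks how the mimic altered transcripts of the arthritic joint.

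Collagens are the triple-helical proteins that give joints their mechanical frame. Fibrillar types I, III and V build bone, tendon, ligament and capsule, while types II and XI build the fibrils of cartilage, on whose surface type IX sits. FACITs are fibril-associated collagens whose helix is interrupted. Type IV forms the sheet of basement membranes, type VI forms beaded microfibrils around cells, type VIII lies in vessel walls and type X marks hypertrophic cartilage. Each molecule is a trimer, so chains encoded by different genes must often be made together.

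The sequence of the delivered microRNA and the places where it could pair with these transcripts are shown first, since they connect the treatment to the genes. The mature sequence is from RefSeq (GRCm38.p6, chromosome 14, 115043684 to 115043706, plus strand), with the seed, bases 2 to 8, in capitals.
mmu-miR-17-5p: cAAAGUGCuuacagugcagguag
For each gene the longest 3 prime UTR in GENCODE M21 (same build) was taken, and the motifs GCACTTTA, GCACTTT and CACTTTA were searched in it on the transcript strand. GCACTTTA contains both of the shorter ones. At least 1 was present in 2700 of 12609 tested genes with such a UTR, 21.4%, and in 2 of the 33 collagen chains, 6.06%. The full GCACTTTA stood in 4.23% of all tested genes with a UTR and in 0 of the 33 chains. The 3 matches, in capitals within 30 bases of the reference transcript, were these.
Col4a2, chr8:11448973-11449002, plus strand: aggagatgataGCACTTTtttctatcaaat
Col5a1, chr2:28037323-28037352, plus strand: tatttgaagatCACTTTAaaaaaaattcaa
Col5a1, chr2:28039096-28039125, plus strand: tctcctcagtcCACTTTAgctccaatattt
The log2 fold changes of these genes, mimic minus control, were -0.04 for Col4a2 and -0.20 for Col5a1, and neither passed the test. The other 31 chains had a median of 0.14. Over all tested genes with a UTR, those with a match and those without both had a median of -0.01. A match of letters in a reference UTR is a description, not a site of binding.

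The libraries held between 27465276 and 31118975 reads assigned to genes, with 13130 to 13470 genes reaching 1 FPKM per library. Markers of bone, cartilage, tendon, fibroblasts, muscle, fat and marrow were all present, as the label ankle implies. Control replicate 5 stood apart: its keratinocyte markers summed to 78.3 FPKM against 1.99 to 2.42 FPKM in the other 6 libraries. Krt5 and Krt14, keratins of the skin's basal layer, were at 10.7 and 13.8 FPKM there. In the 6 other libraries both were at 0.045 FPKM or below. The same library had the lowest mean log2 level of the skeletal muscle list (6.63, against 7.99 to 9.76 elsewhere) and of the osteoblast and osteocyte list (3.71, against 4.77 to 5.40). Of the other lists, all 7 adipocyte markers had a higher mean with the mimic and all 7 neutrophil markers a lower one. Among the latter, Camp, Ngp and Ltf had log2 fold changes of only -0.01, -0.15 and -0.17 (SE 0.61 to 0.62). All 8 skeletal muscle, 6 Schwann cell and 5 tested erythroid markers also had a higher mean, and all 5 tested osteoclast markers a lower one. Over all genes tested 48.4% had a higher mean. The groups overlapped for all 8 muscle markers. Acta1, 1 of them, was at 1772, 976 and 337 FPKM in control replicates 2, 3 and 5 and between 514 and 2253 FPKM in mimic ankles. For the collagen chains, log2 fold changes that moved by more than 1.5 times without control replicate 5 are given without it beside the gene. The same was done for the 2 genes with the smallest p in each list of genes that make and process collagen. For all other listed genes, the cell type markers among them, no value without this library is given. In whole ankles, fewer cells of a type and less RNA per cell cannot be told apart.

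Collagen chains made up a large share of the ankle's messenger RNA. The 33 members together took between 8.94% and 10.6% of all assigned reads. Control replicates 2, 3 and 5 had 8.94%, 10.1% and 9.83%, and mimic replicates 1, 2, 4 and 5 had 10.6%, 10.1%, 10.0% and 10.0%, so that the groups overlapped in read share. The summed level did not overlap, narrowly (highest control 19258 FPKM, lowest mimic 19265 FPKM), and was 18401 ± 1054 FPKM (SD, n = 3) in control and 19658 ± 525 FPKM (SD, n = 4) in mimic ankles. Col1a1, Col1a2 and Col3a1 alone held 84.1% to 85.5% of that sum in every library. Of the 33 chains, 11 had a mean of at least 100 FPKM and 9 lay under 10 FPKM.

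**Figure D1:**
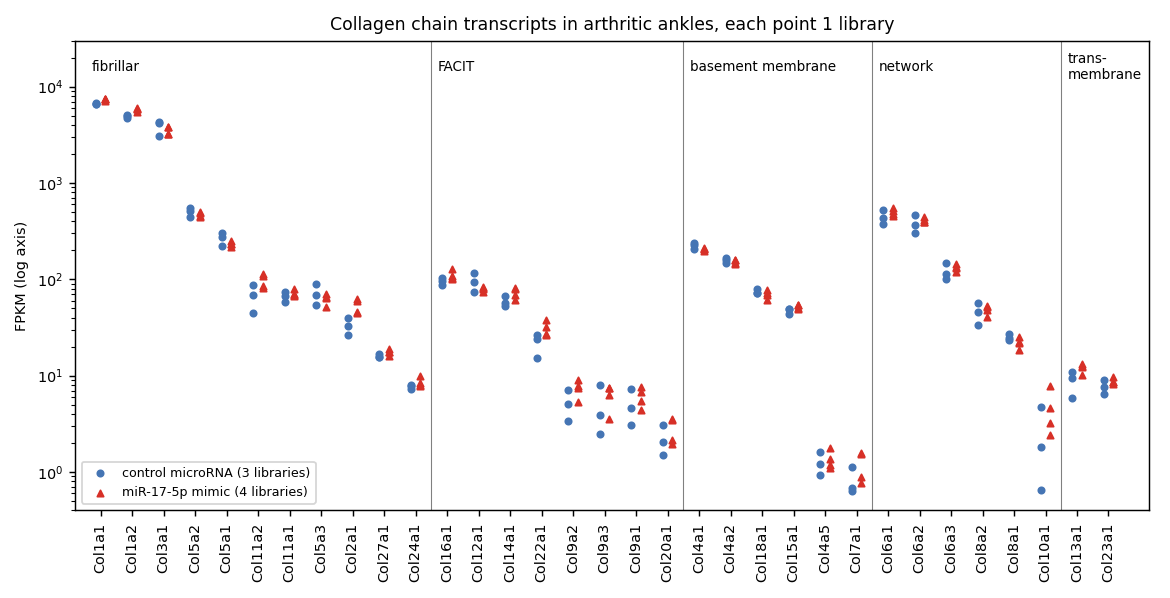
Level of the 33 collagen chain genes in FPKM on a log axis, grouped by class and ordered by mean within it. Circles are the 3 control and triangles the 4 mimic libraries. The type I and III chains stand at 3076 FPKM or above in every library, and Col10a1 has the widest spread, from 0.65 to 7.73 FPKM.

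The groups were compared with limma over all 13418 genes whose mean reached 1 FPKM, on log2(FPKM + 0.5), which understates the change of low genes. No collagen chain passed at an adjusted p under 0.05, and neither did any of the genes tested (0%). The smallest adjusted p among the chains was 0.176, for Col2a1. At an unadjusted p under 0.05, 4 chains were higher in mimic ankles, 12.1% of the members against 7.48% of all genes tested. These were Col2a1, Col11a2, Col22a1 and Col13a1. None was lower, against 10.1% of all genes tested. Every mimic library exceeded every control library for 3 chains, Col2a1, Col1a1 and Col1a2, which is 9.09% of members against 6.48% of all genes tested. The reverse held for 0 chains against 8.84% of all genes tested. The median log2 fold change of the members was 0.14, beside -0.01 over all genes tested, and 24 of the 33 had a higher mean in mimic ankles (72.7%, against 48.4% of all genes tested). These shares are descriptions, since related chains are not independent of each other. The 33 include Col7a1, which reached 1 FPKM only through the mimic libraries, and so had to be higher there.

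**Figure D2:**
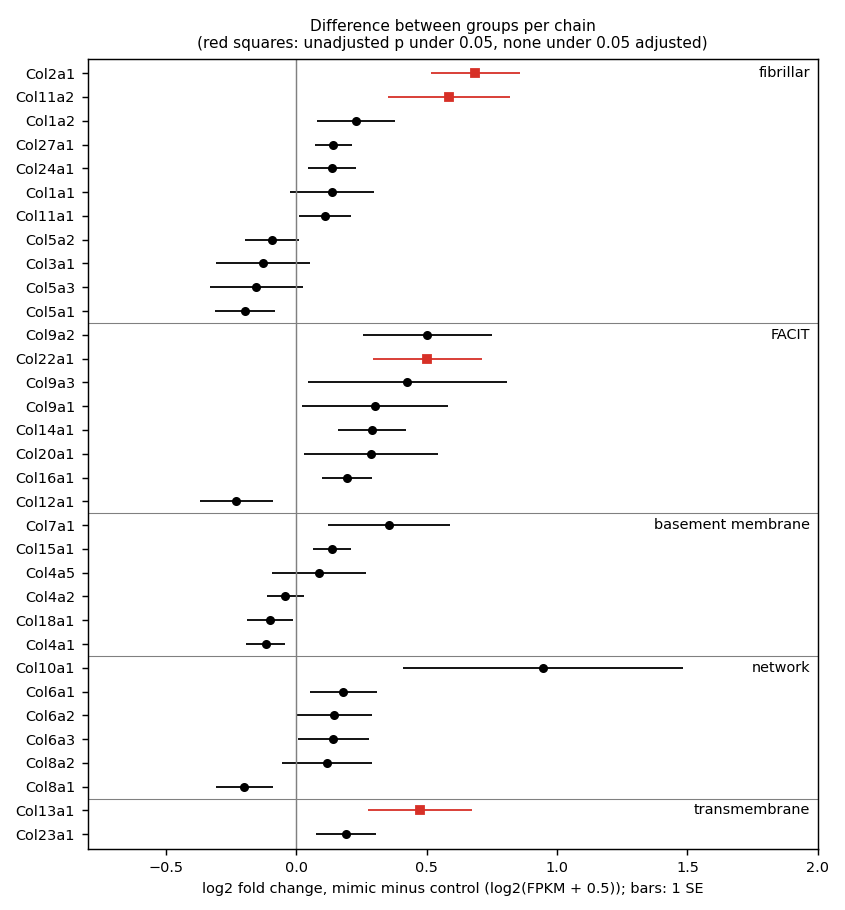
Log2 fold change of each chain, mimic minus control, with bars of 1 SE from limma. Red squares mark the 4 chains with an unadjusted p under 0.05 (Col2a1, Col11a2, Col22a1 and Col13a1), and all other chains are black circles. The values run from -0.23 for Col12a1 to 0.94 for Col10a1, whose bar is the longest.

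Among fibrillar chains those of type I were the most abundant transcripts, and both were slightly higher with the mimic. Col1a1 (mm10 chromosome 11, 94936270 to 94951867), which encodes the alpha 1 chain of the main collagen of bone and tendon, was at 6672, 6846 and 6683 FPKM in control replicates 2, 3 and 5. It was at 7464, 7535, 7055 and 7532 FPKM in mimic replicates 1, 2, 4 and 5. Every mimic library lay above every control library, by a small margin. The log2 fold change was 0.14 (SE 0.16, limma adjusted p = 0.664). Its SE was 0.055 when the variance was not modelled as a trend over abundance (limma unadjusted p = 0.042, adjusted p = 0.27). Col1a2 (chromosome 6, 4505697 to 4541543), the alpha 2 chain of the same trimer, was at 4944, 5118 and 4751 FPKM in control joints and 6050, 5886, 5441 and 5797 FPKM in mimic ankles. The groups again did not overlap, and the log2 fold change was 0.23 (SE 0.15, limma adjusted p = 0.443). Without the variance trend the SE of Col1a2 was 0.063 (limma unadjusted p = 0.0076, adjusted p = 0.1855). With quantile normalization the values were 0.0 for Col1a1 and -0.02 for Col1a2. That method forces the same distribution of values on every library. A gene that keeps its rank in all libraries then comes out at 0.0 whatever its change in level. These values therefore cannot show whether the most abundant chains changed. Of the Col1a2 exons, 18.4% of the length is shared with an unnamed gene on the opposite strand, and the strand setting of the counting is not given in the sources used here. Bone markers also had higher means. All 10 genes of the osteoblast and osteocyte list had a higher mean with the mimic, beside 48.4% of all genes tested. At an unadjusted p under 0.05, 2 were higher, against 7.48% of all genes tested, and 0 adjusted. The groups did not overlap for Bglap and Bglap2. For others the higher mean rested on control replicate 5. Dmp1 was at 56.7, 44.4 and 12.6 FPKM in control joints and 26.8 to 64.6 FPKM in mimic ankles. Mepe was at 5.03, 6.26 and 1.27 FPKM in control joints and 1.90 to 9.29 FPKM in mimic ankles. The list summed to 636 to 1001 FPKM in control joints and 1034 to 1178 FPKM in mimic libraries. Of 6 tendon and ligament markers 5 had a higher mean, with overlapping sums of 1135 to 1371 and 1265 to 1558 FPKM. At an unadjusted p under 0.05, 4 of them were higher, as were 7.48% of all genes tested, and 0 adjusted. The mean log2 level of the tendon list did not overlap, at 5.88 to 6.07 in control and 6.17 to 6.45 in mimic libraries. That of the osteoblast and osteocyte list did, at 3.71 to 5.05 and 4.79 to 5.40. The part of bone and tendon markers in the type I result was not tested.

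Col3a1 (chromosome 1, 45311538 to 45349706), the type III chain of pliable tissues and repair matrix, did not follow type I. It was at 3076, 4224 and 4322 FPKM in control joints and 3793, 3225, 3833 and 3221 FPKM in mimic ankles. Control replicate 2 was the lowest of all and the other 2 controls the highest. Its ratio to Col1a1 was 0.461, 0.617 and 0.647 in control and 0.508, 0.428, 0.543 and 0.428 in mimic ankles, with overlapping groups. Col5a1, Col5a2 and Col5a3, the type V chains that set fibril diameter, had lower means with the mimic. Col5a1 was at 269 ± 40.9 FPKM in control joints and 233 ± 13.8 FPKM in mimic ankles, Col5a2 at 503 ± 57.6 and 470 ± 27.2 FPKM, and Col5a3 at 70.8 ± 18.0 and 62.7 ± 7.95 FPKM. Their log2 fold changes lay between -0.20 and -0.09, and none passed. For Col3a1, Col5a1 and Col5a2, control replicates 3 and 5 were the highest libraries. These differences depended on single controls. Without control replicate 2 the log2 fold changes of Col3a1, Col5a1, Col5a2 and Col5a3 were -0.29, -0.32, -0.18 and -0.33. Without control replicate 5 those of Col3a1, Col5a1 and Col5a2 were -0.04, -0.10 and -0.02. Without control replicate 3 that of Col5a3 turned to 0.03.

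Col2a1, the main collagen of cartilage fibrils and the classical immunogen of this arthritis model, differed most clearly. Its gene lies on chromosome 15, from 97975602 to 98004724. The control ankles had 26.5, 32.7 and 39.4 FPKM and the mimic ankles 45.9, 62.3, 59.9 and 44.6 FPKM. All mimic libraries were above all control libraries. The log2 fold change was 0.69 (SE 0.17, unadjusted p = 0.0045, limma adjusted p = 0.176). It remained between 0.54 and 0.82 when each library was left out in turn, with an unadjusted p under 0.05 each time. Of 10 other cartilage genes listed, 9 were tested. Of these, 8 were higher on average with the mimic (median log2 fold change 0.58), against 48.4% of all genes tested. At an unadjusted p under 0.05, 3 were higher, against 7.48% of all genes tested, and 0 adjusted. The mean log2 level of that list, which holds no collagen, was 3.68 to 3.81 in control and 4.18 to 4.40 in mimic libraries. Its summed level overlapped, at 680 to 847 FPKM and 765 to 934 FPKM, and Matn1 was the member under 1 FPKM. Since the list separates the groups completely, a fit with it as a covariate cannot tell it from the treatment, and the Col2a1 estimate in that fit was -0.44 (SE 0.45).

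The type XI chains, which nucleate cartilage fibrils and also occur outside cartilage, overlapped between the groups. Col11a1 (chromosome 3, 114030540 to 114220326) was at 66.6, 57.7 and 74.5 FPKM in control joints and 68.4, 79.4, 69.7 and 67.8 FPKM in mimic ankles. The groups overlapped and its log2 fold change was 0.11 (SE 0.10), or 0.20 without control replicate 5 and 0.015 without control replicate 3. The ratio of Col11a1 to Col2a1 was therefore lower in every mimic library, at 1.16 to 1.52, than in any control library, at 1.76 to 2.51. Col11a2 (chromosome 17, 34039437 to 34066242) was at 87.9, 67.9 and 44.2 FPKM in control joints and 85.7, 109, 81.3 and 115 FPKM in mimic ankles. Control replicate 5 was the lowest by a wide margin, and control replicate 2 lay within the range of the mimic libraries. The log2 fold change was 0.59 (SE 0.24, unadjusted p = 0.040, limma adjusted p = 0.265). Without control replicate 5 it was 0.32.

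Col27a1 and Col24a1, fibrillar chains of cartilage and developing bone, were low and even. Col27a1 (chromosome 4, 63215412 to 63334991) was at 16.7, 15.6 and 15.5 FPKM in control joints and 19.1, 16.1, 17.8 and 17.8 FPKM in mimic ankles. Mimic replicate 2 fell within the control range, and the log2 fold change was 0.14 (SE 0.069). Col24a1 was at 7.70 ± 0.38 and 8.56 ± 0.98 FPKM. Of the 11 fibrillar chains, 7 had a higher and 4 a lower mean with the mimic, and the median log2 fold change was 0.14.

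Among FACITs 7 of 8 chains were higher on average, the median log2 fold change was 0.30, and 1, Col22a1, stood at an unadjusted p under 0.05. Type IX decorates cartilage fibrils and is a trimer of the products of Col9a1, Col9a2 and Col9a3. Col9a1 (chromosome 1, 24177610 to 24252738) was at 4.63, 3.05 and 7.26 FPKM in control joints and 5.43, 6.77, 7.61 and 4.36 FPKM in mimic ankles. Col9a2 (chromosome 4, 121039566 to 121055325) was at 5.09, 3.38 and 7.15 FPKM in control joints and 7.76, 7.48, 9.03 and 5.35 FPKM in mimic ankles. Both were lowest in control replicate 3 and highest in mimic replicate 4. Col9a3 was at 4.82 ± 2.90 and 6.22 ± 1.84 FPKM, from 2.51 FPKM in control replicate 3 to 8.08 FPKM in control replicate 5. Its exons share 8.08% of their length with Tcfl5 on the opposite strand. The log2 fold changes were 0.30 (SE 0.28), 0.50 (SE 0.25) and 0.42 (SE 0.38), and the groups overlapped for all 3 chains. Without control replicate 3 they were 0.025, 0.25 and 0.082, and without control replicate 5 they were 0.59, 0.74 and 0.84.

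Col22a1 (chromosome 15, 71798476 to 72034227), the chain of the junction between muscle and tendon, was at 24.0, 26.4 and 15.1 FPKM in control joints and 26.8, 31.8, 26.2 and 37.8 FPKM in mimic ankles. Control replicate 5 was lowest and mimic replicate 5 highest, and the groups overlapped at control replicate 3. The log2 fold change was 0.50 (SE 0.21, unadjusted p = 0.045, limma adjusted p = 0.276). It was 0.26 without control replicate 5. Part of the Col22a1 exons, 7.74% of their length, lies opposite an unnamed gene listed at 0 FPKM in all libraries.

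Col14a1 (chromosome 15, 55307750 to 55520803), a FACIT of tendon and skin that limits fibril growth, was at 57.3, 67.2 and 52.6 FPKM in control joints and 78.9, 60.5, 82.2 and 68.4 FPKM in mimic ankles. Mimic replicate 2 lay among the controls, and the log2 fold change was 0.29 (SE 0.13). Col12a1, a FACIT of dense connective tissue, was the 1 FACIT with a lower mean, 94.7 ± 21.0 FPKM in control joints and 79.4 ± 3.56 FPKM in mimic ankles. Its control range, 74.2 to 116 FPKM, contained all mimic libraries. Its log2 fold change was -0.23 (SE 0.14), -0.39 without control replicate 2 (limma adjusted p = 0.074) and -0.07 without control replicate 5 (limma adjusted p = 0.86). Col16a1 was at 95.7 ± 7.48 and 110 ± 11.5 FPKM, and Col20a1, the least abundant FACIT among the members, at 2.2 ± 0.79 and 2.78 ± 0.84 FPKM. For Col20a1 the log2 fold change was 0.29, or 0.085 without control replicate 5 and 0.50 without control replicate 2.

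Basement membrane chains were the most even class, with 3 chains higher and 3 lower on average and a median log2 fold change of 0.02. Col4a1 (chromosome 8, 11198423 to 11312826), a chain of the widespread type IV trimer, was at 205, 224 and 238 FPKM in control joints and 207, 195, 212 and 205 FPKM in mimic ankles, with overlapping groups (log2 fold change -0.12, SE 0.075, or -0.07 without control replicate 5). Col4a2 was at 157 ± 10.1 and 153 ± 6.74 FPKM, and its log2 fold change of -0.04 was -0.003 without control replicate 5. These genes lie head to head and are transcribed in opposite directions from a shared stretch, where the RefSeq promoter table places their starts at the 2 ends of a stretch of 22 bases. The 30 bases around both starts are shown because the ratio of the transcripts varied little. The capitals run from the start of Col4a2 at 11312805 to that of Col4a1 at 11312826.
Col4a1 and Col4a2 starts, GRCm38.p6 chr8:11312801-11312830, plus strand: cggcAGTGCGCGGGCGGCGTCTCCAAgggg
The deposited exons of Col4a1 also end at 11312826. Those of Col4a2 begin at 11312829, outside the stretch in capitals, so the sources place the start of Col4a2 differently. The ratio of Col4a1 to Col4a2 ranged over 1.09-fold between libraries, the narrowest of the 13 ratios computed. It was 1.40, 1.40 and 1.43 in control and 1.31, 1.34, 1.34 and 1.37 in mimic libraries, lower in each mimic library than in any control.

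Col15a1 and Col18a1 join basement membranes to the matrix beneath. Col15a1 (chromosome 4, 47208012 to 47313165) was at 43.4, 49.2 and 49.7 FPKM in control joints and 54.5, 50.2, 54.6 and 49.5 FPKM in mimic ankles. Its log2 fold change was 0.14 (SE 0.072), or 0.08 without control replicate 2, and mimic replicate 5 lay just under the highest control. Col18a1, the precursor of endostatin, was at 74.9 ± 3.78 and 70.0 ± 6.83 FPKM, a difference of -0.10 in log2 and of -0.06 without control replicate 5. Col7a1 (chromosome 9, 108953745 to 108984875), of the anchoring fibrils of skin, was at 1.12, 0.63 and 0.68 FPKM in control joints and 0.88, 1.55, 0.76 and 1.58 FPKM in mimic ankles. It was not raised in control replicate 5, the library with keratins. Col4a5, a minor type IV chain, was at 1.25 ± 0.35 and 1.36 ± 0.31 FPKM, and its log2 fold change of 0.09 turned to -0.05 without control replicate 2 and to -0.02 without mimic replicate 4.

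Network-forming chains included the most variable chain of all. Col10a1 (chromosome 10, 34389981 to 34397085), the marker of hypertrophic cartilage at growth plates and repair sites, was at 1.81, 4.70 and 0.65 FPKM in control joints and 4.57, 2.44, 3.20 and 7.73 FPKM in mimic ankles. The reads behind these values ran from 63 to 703. The range was 11.8-fold, where 16 of the 33 chains varied by less than 1.5-fold. Control replicate 5 was lowest, mimic replicate 5 highest, and control replicate 3 exceeded 3 of the 4 mimic libraries. The log2 fold change of 0.94 had an SE of 0.54 (limma adjusted p = 0.384), and was 0.42 without control replicate 5. In control replicate 3 Col10a1 was high while the type IX chains were at their lowest, and in control replicate 5 it was at its lowest while Col9a3 was at its highest.

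Type VI chains kept close step. Col6a1 (chromosome 10, 76708792 to 76726044) was at 375, 519 and 437 FPKM in control joints and 553, 512, 477 and 457 FPKM in mimic ankles. Control replicate 2 was the lowest and control replicate 3 the second highest of the 7, so the groups overlapped (log2 fold change 0.18, SE 0.13). An unnamed opposite-strand gene at 0.24 FPKM shares 22.2% of the Col6a1 exon length. Col6a2 was at 378 ± 82.7 and 411 ± 25.5 FPKM and Col6a3 at 121 ± 24.3 and 132 ± 10.9 FPKM. The ratio of Col6a1 to Col6a2 stayed between 1.11 and 1.24 and that of Col6a3 to Col6a2 between 0.301 and 0.342, with overlapping groups. Without control replicate 2 the log2 fold changes of the 3 chains were 0.066, -0.003 and 0.017. Without control replicate 3 they were 0.30, 0.31 and 0.30.

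The type VIII chains of vessel walls differed in direction. Col8a1 (chromosome 16, 57624256 to 57754737) was at 24.3, 23.4 and 27.3 FPKM in control joints and 21.7, 22.2, 25.2 and 18.3 FPKM in mimic ankles, with a log2 fold change of -0.20 (SE 0.11). Mimic replicate 4 exceeded 2 of the controls. Col8a2 was at 45.3 ± 11.2 and 48.4 ± 5.44 FPKM, and its log2 fold change of 0.12 turned to -0.07 without control replicate 3 and was 0.29 without control replicate 5. Of the 6 network chains, 5 had a higher mean with the mimic, 0 reached an unadjusted p under 0.05, and the median log2 fold change was 0.14.

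Both transmembrane members had a higher mean. Col13a1 (chromosome 10, 61838498 to 61979108), a membrane collagen of cell contacts that include the neuromuscular junction, was at 11, 9.44 and 5.79 FPKM in control joints and 12.3, 12.5, 10.2 and 13.1 FPKM in mimic ankles. Control replicate 5 was again the lowest, and control replicate 2 exceeded mimic replicate 4. The log2 fold change was 0.47 (SE 0.20, unadjusted p = 0.047, limma adjusted p = 0.278), or 0.22 without control replicate 5. Col23a1 (chromosome 11, 51289920 to 51583925) was at 9.05, 6.40 and 7.67 FPKM in control joints and 9.73, 8.64, 8.52 and 8.27 FPKM in mimic ankles, and its log2 fold change was 0.19 (SE 0.11), or 0.07 without control replicate 3 and 0.30 without control replicate 2.

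**Figure D3:**
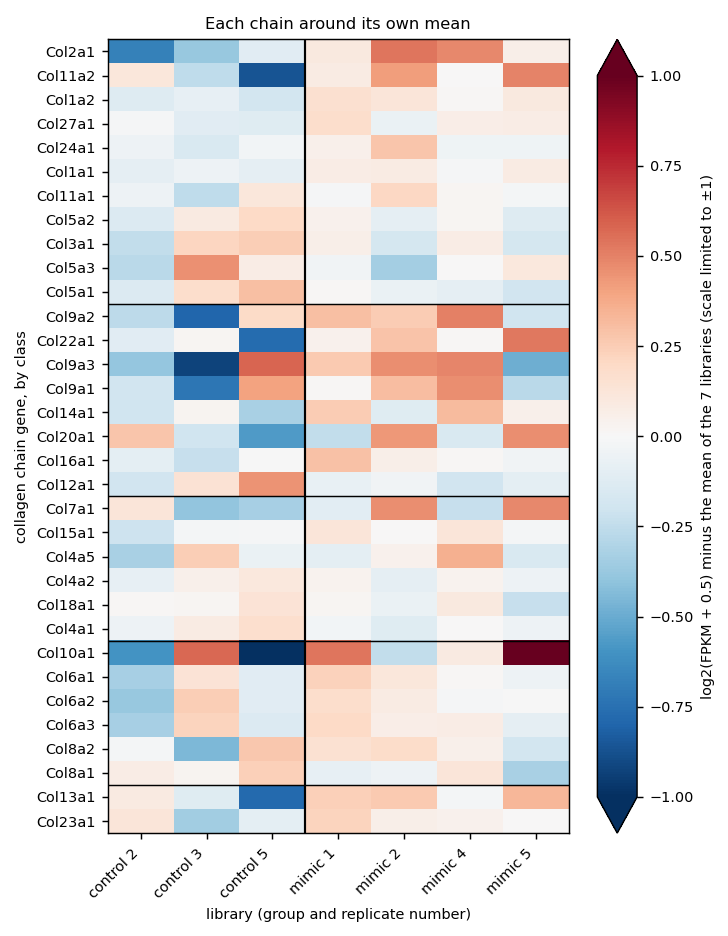
Heat map of the 33 chains by library, each shown as log2(FPKM + 0.5) minus its own mean over the 7 libraries, with colours limited to 1 log2 unit either way. The black vertical line parts control from mimic libraries. Control replicate 5 is lowest for Col11a2, Col22a1, Col20a1, Col13a1 and Col10a1 and highest for Col9a3, Col12a1 and Col3a1. Control replicate 3 is lowest for the 3 type IX chains.

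The chains did not vary as 1 block. Control replicate 2 was the lowest library for 10 chains, among them Col1a1, Col2a1, Col3a1 and the type VI chains, and the highest for 0. Control replicate 5 was the lowest for 8 and the highest for 10. Control replicate 3 was the lowest for 9 and the highest for 3. Mimic replicates 1 and 4 were the lowest for 0 chains and each the highest for 5, while mimic replicates 2 and 5 were each the lowest for 3.

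Some chains shared part of the library order of the skeletal muscle markers. All 8 genes of that list were measured above 1 FPKM and summed to 1132 to 6487 FPKM in control joints and 2491 to 9344 FPKM in mimic libraries. In rising order of the list mean the libraries were control 5, mimic 1, control 3, mimic 4, control 2, mimic 2 and mimic 5. Col20a1 was the 1 chain whose values took exactly this order. Col11a2, Col13a1, Col22a1 and Col7a1 were, like the muscle list, highest in mimic replicate 5 and next highest in mimic replicate 2. Below these libraries their orders departed from the list. Col22a1 was next to lowest in control replicate 2, and Col7a1 was lowest in control replicate 3. The Schwann cell list shared the extremes of the muscle list. Its mean log2 level was 3.33 in control replicate 5, 4.35 in mimic replicate 2 and 4.39 in mimic replicate 5. It stood at 3.86 to 4.28 in the other libraries. When the mean of the muscle list entered the fit, the log2 fold change fell from 0.59 to 0.26 for Col11a2, from 0.50 to 0.24 for Col22a1 and from 0.47 to 0.24 for Col13a1. Col11a2 kept an unadjusted p of 0.0455 (limma adjusted p = 0.411). For Col20a1 it went from 0.29 to -0.07. Other chains rose in that fit, Col9a1 from 0.30 to 0.49, Col9a2 from 0.50 to 0.71, Col9a3 from 0.42 to 0.78 and Col15a1 from 0.14 to 0.21. Col2a1 did not follow the order of the muscle list, and its value with the covariate was 0.80 (unadjusted p = 0.0034, limma adjusted p = 0.239). Col1a1 was at 0.13 with it. The part of muscle in these differences was not tested further.

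**Figure D4:**
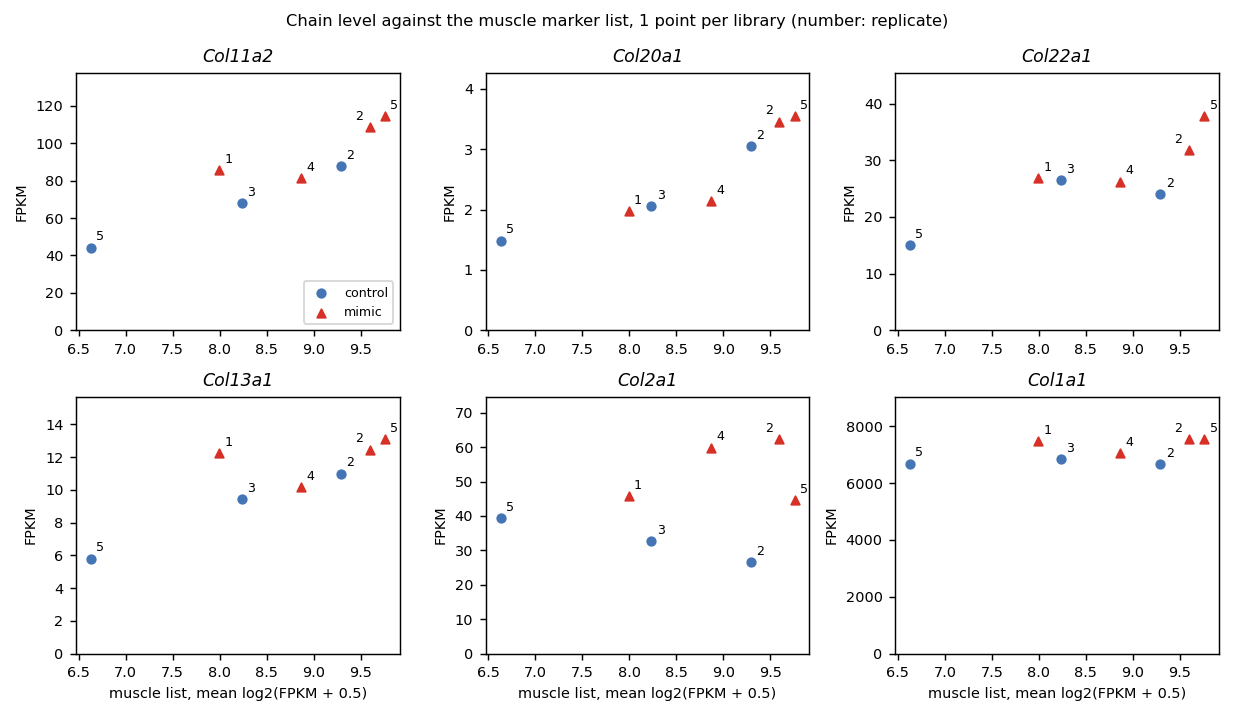
FPKM of 6 chains against the mean log2(FPKM + 0.5) of 8 skeletal muscle markers, 1 point per library, numbered by replicate, with circles for control and triangles for mimic. Col11a2, Col20a1, Col22a1 and Col13a1 are lowest in control replicate 5, where the muscle list is lowest (6.63), and highest in mimic replicate 5 (9.76). Col2a1 and Col1a1 are higher in the mimic libraries at both low and high muscle levels.

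Partner chains were compared by their ratio in each library, as a description without a test. The ratio of Col1a1 to Col1a2 was 1.35, 1.34 and 1.41 in control and 1.23, 1.28, 1.30 and 1.30 in mimic libraries. It was lower in each mimic library than in any control. The ratio of Col5a1 to Col5a2 lay between 0.474 and 0.549, with overlapping groups. Col9a1 to Col9a2 lay between 0.70 and 1.02, and Col9a3 to Col9a2 between 0.667 and 1.13. Col8a1 to Col8a2 lay between 0.419 and 0.693. The widest range among the 13 ratios was 2.96-fold, for Col11a2 to Col2a1. Of the 13 ratios, 3 did not overlap between the groups: Col1a1 to Col1a2, Col4a1 to Col4a2 and Col11a1 to Col2a1, each lower with the mimic. Several ratios share a chain, and no share over other gene pairs was computed to set beside this count.

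**Figure D5:**
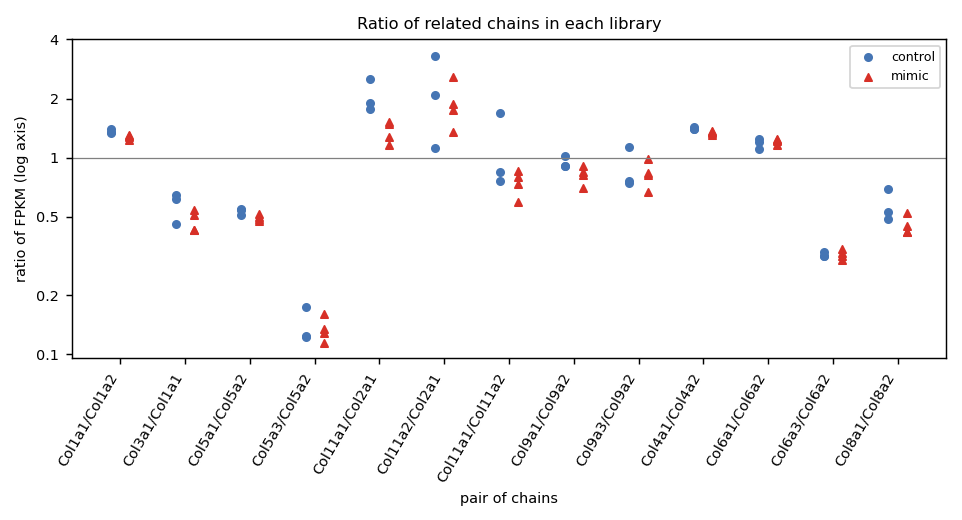
Ratio of FPKM between related chains on a log axis, with circles for the 3 control and triangles for the 4 mimic libraries. Col4a1 to Col4a2 and the type VI ratios are tight, at 1.31 to 1.43, 1.11 to 1.24 and 0.301 to 0.342. Col11a2 to Col2a1 is spread from 1.12 to 3.31, and Col11a1 to Col2a1 is lower in all 4 mimic libraries.

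The remaining 11 chain genes lay under 1 FPKM and were not tested. They are Col4a3, Col4a4, Col4a6, Col6a4, Col6a5, Col6a6, Col17a1, Col19a1, Col25a1, Col26a1 and Col28a1. Just inside the limit lay Col7a1 (mean 1.03 FPKM) and Col4a5 (1.31 FPKM), and just outside Col28a1 (0.91 FPKM) and Col6a5 (0.80 FPKM). Col17a1, the hemidesmosome collagen of basal keratinocytes, was at 0.24, 0.21 and 0.62 FPKM in control joints and 0.24, 0.17, 0.16 and 0.16 FPKM in mimic libraries. Its highest value was in the library with keratins. Col6a6, a rarer type VI chain, ran from 0.048 FPKM in control replicate 5 to 1.01 FPKM in mimic replicate 5, on 11 to 220 reads.

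Genes that make and process collagen were examined from 6 lists, of which 56 of 60 genes were tested. None passed at an adjusted p under 0.05. At an unadjusted p under 0.05, 3 were higher and 8 lower in mimic ankles, where 7.48% of all genes tested were higher and 10.1% lower, and the median log2 fold change was -0.07. Prolyl and lysyl hydroxylases, which modify the chains before the helix forms, had a lower mean in 11 of 12 genes (median -0.18), and 3 were lower at an unadjusted p under 0.05, as were 10.1% of all genes tested. P4ha1, a catalytic subunit of prolyl 4-hydroxylase, was at 36.2, 36.9 and 44.3 FPKM in control joints and 32.4, 32.0, 36.1 and 33.2 FPKM in mimic ankles. P4ha2, its alternative, was at 41.1 ± 6.87 and 33.7 ± 1.29 FPKM. For both, all mimic libraries lay below all control libraries, narrowly so for P4ha1, where control replicate 2 and mimic replicate 4 nearly met. Control replicate 5 was the highest library for both, and without it the log2 fold changes went from -0.22 to -0.13 for P4ha1 and from -0.27 to -0.14 for P4ha2. It was also the highest for P3h3 and Crtap, whose lower means rested on it. P3h3 was at 63.9, 63.5 and 77.0 FPKM in control joints and 61.9 to 74.6 FPKM in mimic ankles. Crtap was at 131, 122 and 141 FPKM in control joints and 122 to 136 FPKM in mimic ankles. In 4 of the 12, P4hb and P3h1 besides these P4ha genes, the mimic libraries lay below all controls, as in 8.84% of all genes tested.

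Of 7 cross-linking enzymes 6 had a lower mean, with a median of -0.13. Lox, the lysyl oxidase that starts cross-linking of collagen and elastin, was at 187, 303 and 319 FPKM in control joints and 173, 162, 185 and 169 FPKM in mimic ankles. The groups did not overlap, though control replicate 2 came close, and the log2 fold change was -0.61 (SE 0.18, limma adjusted p = 0.198). Without control replicate 2 it was -0.85 (limma adjusted p = 0.022). Loxl4 was at 7.21 ± 1.92 and 5.84 ± 0.44 FPKM, and its log2 fold change of -0.26 was -0.06 without control replicate 3 and -0.39 without control replicate 2. Among chaperones and secretion factors 8 of 11 had a lower mean (median -0.08). Sec24d, a coat protein that helps export procollagen, was at 37.5 ± 3.75 and 32.1 ± 1.61 FPKM, whereas Colgalt2, a galactosyltransferase of collagen, was at 3.12 ± 0.58 and 4.07 ± 0.36 FPKM (log2 fold change 0.35, or 0.21 without control replicate 5).

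Enzymes that remove propeptides had 3 higher and 4 lower means (median -0.01). Adamts14, a procollagen N-proteinase, was at 3.88 ± 0.32 FPKM in control joints and 4.97 ± 0.42 FPKM in mimic ankles (log2 fold change 0.32, SE 0.088, limma adjusted p = 0.179), and Adamts2, of the same kind, at 47.8 ± 3.30 and 52.5 ± 3.78 FPKM. Among collagen receptors Itga10, the integrin chain of chondrocytes, was at 10.6 ± 2.66 and 15.5 ± 2.10 FPKM. Oscar, a collagen receptor of osteoclasts, was at 16.9 ± 1.60 and 12.7 ± 0.58 FPKM, and 5 of 5 osteoclast markers tested, Oscar among them, lay below all control libraries in every mimic library, as did 8.84% of all genes tested. That list summed to 2103 to 2216 FPKM in control joints and 1695 to 1898 FPKM in mimic libraries. The receptor list as a whole had 6 higher and 4 lower means (median 0.10). Of transcription factors that act on collagen genes, 6 had a higher and 3 a lower mean (median 0.06). Nfatc1, which is also the master factor of osteoclasts, was at 24.4 ± 1.79 and 20.2 ± 0.50 FPKM. Sox6, a partner of Sox9 at the Col2a1 enhancer, was at 1.67 ± 0.66 and 2.51 ± 0.46 FPKM with overlapping groups (log2 fold change 0.51, or 0.26 without control replicate 5). Sox9 itself had a lower mean, at 7.29 ± 1.94 and 6.58 ± 1.08 FPKM with overlapping groups (log2 fold change -0.12, SE 0.18). That lower mean rested on control replicate 5, the highest library for Sox9, at 9.45 FPKM. Control replicates 2 and 3, at 6.69 and 5.72 FPKM, lay within the range of the mimic libraries. Sox5, of the same list, was at 1.49 ± 0.37 and 1.56 ± 0.15 FPKM.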

How the data were processed

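RNA of 7 ankles was sequenced from Illumina libraries, per the labels. The authors deposited FPKM per gene and library, with joined exon lengths and positions, per the file headers. The submitters' processing notes list, without saying what each was used for, STAR 2.5.2b, bcl2fastq 2.20, DESeq2 1.14.1, Subread and featureCounts, and the build mm10 (GRCm38). The sources used here do not state the strand setting or annotation release. Entrez numbers were matched to RefSeq symbols of the same build (25275 of 27179). FPKM times length gave whole multiples of 1 step per library in 100% of cases, to within 0.01 read, and so the read totals (0.0321 to 0.0364 FPKM per read in a gene of 1 kilobase). A chi-square per gene of at least 16.7 over 21 pairs showed no library given under 2 names.

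The test was limma 3.58.1 (R 4.3.3; eBayes, trend over abundance) on log2(FPKM + 0.5), 13418 genes, group as the factor, Benjamini-Hochberg over all genes, 2-sided, at 0.05. It was tested on simulated data. Alternatives were pseudocounts of 0.1 and 1, no filter or a stricter one at 5 FPKM, quantile normalization, limma-voom on recovered reads, scaling by median of ratios, eBayes without the trend, a replicate block, muscle or cartilage list means as covariates, and leaving out each library. Values in every library are given for 10 preset chains and the 3 per class with the smallest p. For the other chains group means are given, and from each pathway list the 2 genes with the smallest p. Sox9 and Sox5 were added beside Sox6 after their values were seen. Members and lists were chosen with earlier results of these data known. The ratios of Col3a1 to Col1a1 and of Col5a3 to Col5a2, and the chains set against muscle markers, were chosen after their values were seen. Tables and plots were made in pandas 2.3.3 and matplotlib 3.10.9 under Python 3.11.15.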

Additional observations from a re-analysis of the deposited data

Results flagged for a closer look

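In the 4 mimic libraries 3 chains had 1 library far from the others, of 57 chain genes and ratios examined, where chance alone marks about 5% of groups. Col1a1 was at 7055 FPKM in mimic replicate 4 and between 7464 and 7535 FPKM in the other mimic libraries. Col11a1 was at 79.4 FPKM in mimic replicate 2 against 67.8 to 69.7 FPKM. Col17a1, under the limit for testing, was at 0.237 FPKM in mimic replicate 1 against 0.159 to 0.166 FPKM.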

How the results depend on the processing

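No alternative brought a collagen chain to an adjusted p under 0.05. Over all genes the count was 0, or 1 without a filter on low values (Scarna2), and 0 to 317 when libraries were left out, 317 without control replicate 2 and 2 without mimic replicate 5 (Apol9b and Ifit3, named after their values were seen). Chains higher at an unadjusted p under 0.05 numbered 7 with quantile normalization, 1 with the replicate block, 1 with the cartilage covariate, and 2 to 7 with a library left out (2 without mimic replicate 5, 7 without control replicate 3). Without the variance trend such chains numbered 5, with Col1a1 and Col1a2 among them. With limma-voom there were also 5, with Col1a2 among them. Chains lower numbered 0 to 2 with a library left out (2 without control replicate 2, Col12a1 and Col5a1). The median of the chains was 0.13 to 0.17 with a library left out, 0.067 with the replicate block and -0.15 with the cartilage covariate. The block rests on replicate numbers 2 and 5, whose libraries correlated at 0.54 and -0.43, so the numbers were not treated as pairs.

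Of 33 chains 16 did not turn direction in any fit run, counting Col1a1, which was at 0.0 with quantile normalization. With the cartilage covariate, which separates the groups, values turned to -0.24 for Col11a1, -0.007 for Col15a1, -0.37 for Col24a1, -0.44 for Col2a1, -0.48 for Col4a5, -0.41 for Col6a1, -0.47 for Col6a2, -0.42 for Col6a3, -0.24 for Col8a2, -0.32 for Col9a1 and -0.83 for Col9a3. With the muscle covariate they turned to -0.068 for Col20a1, 0.037 for Col3a1, 0.024 for Col4a2 and 0.020 for Col5a2. With the block they turned to -0.13 for Col8a2, -0.087 for Col9a1 and -0.11 for Col9a3, and with quantile normalization to -0.019 for Col1a2. Quantile normalization fixes each value by its rank, as described for the type I chains. With a library left out the values ran from -0.051 to 0.234 for Col4a5, from -0.331 to 0.032 for Col5a3, from -0.0029 to 0.308 for Col6a2 and from -0.0745 to 0.286 for Col8a2, with control replicates 2, 3 and 5 giving the extremes. Col4a5 was also below 0 without mimic replicate 4, at -0.020. The cause of these turns was not tested. The groups hold 3 and 4 libraries, and among the members Col10a1 has the fewest reads in 1 library, 63.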
